A study of Mus musculus with 6 samples.

Results

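Cytosolic ribosomal proteins are the protein part of the ribosome that translates nuclear-encoded mRNAs. Their genes were taken by symbol: Rpl or Rps with a number and an optional paralogue suffix, Rplp0 to Rplp2, and Rpsa. Rpl3 and Rpl3l were left out, and a mean of at least 10 scaled reads over the 6 libraries was required. Of 84 matching symbols, 82 passed, 48 of the large subunit and 34 of the small, out of 35491 named entries in the files. Members were thus chosen by name and by mean level over all 6 libraries, the only measured value in the rule. Just outside it were Rpl10l, listed at 0 in every library, and Rpl39l, at 3.02 scaled reads in Ogg1Tg replicate 3 and 0 in the others. Just inside were Rps4l, with a mean of 103.9, and Rps28, with a mean of 486.7. All 82 passed the filter on low values of the test over all genes. Annotation called 79 of them protein coding and Rpl6l, Rps12l1 and Rps4l processed pseudogenes, which were kept because the rule holds them.

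RNA was measured in gastrocnemius, the large calf muscle, from 3 Ogg1Tg and 3 Control mice. Ogg1Tg mice carry human OGG1-1a, an enzyme that removes oxidised guanine from DNA, joined to a mitochondrial translocation signal and driven by a CMV/AG promoter, which is not specific to muscle. Control mice are C57BL/6J, and the transgenic mice are on that background; all 6 were males of 20 weeks fed chow. The comparison asks how transcripts differ between transgenic and Control muscle, and the human transgene's own transcript was not analysed here. Reads in named genes numbered 45189860 to 56126407 per library. Values are reads scaled by 1 factor per library and are not corrected for gene length. P-values set the difference between groups against the spread between these 6 mice. The labels name no litters or days, so effects of either cannot be told apart from the group. In bulk muscle, fewer cells of a type and less RNA per cell cannot be told apart.

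Ribosomal protein mRNAs are transcribed from many separate genes and translated together, because most begin with a C followed by a run of pyrimidines, the 5′ terminal oligopyrimidine (TOP) motif. Through this motif LARP1 and the growth kinase mTORC1 set how much of the mRNA is engaged by ribosomes. Proteins of both subunits are made in the cytoplasm, imported into the nucleolus and assembled onto ribosomal RNA, and unassembled copies are degraded. In skeletal muscle, ribosome number is known as a determinant of the capacity for protein synthesis.

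The sequences at annotated transcription starts show where this motif could be read and where it could not. RefSeq start windows on GRCm38.p6 were matched for 60 of the 82 genes. A C followed by at least 4 pyrimidines lay within 5 bases of an annotated start in 29 of the 60 (48.3%), which were 17 of 36 large and 12 of 24 small subunit genes. The same run was found in 2983 of 12879 other protein-coding genes tested (23.2%). Counted by start, it lay at 43.7% of the members' starts and 18.3% of all RefSeq starts. The windows below run from 10 bases before the annotated start to 20 from it, 30 bases in all. Capitals mark the pyrimidine run from the qualifying C nearest the start, and any pyrimidines just before that C stay in small letters. The first 4 are the gene with the highest fold change, the kinase substrate Rps6, and the pair Rps27 and Rps27l.
Rpl12 (chr2:32961702-32961731, plus strand): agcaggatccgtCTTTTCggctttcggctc
Rps6 (chr4:86857348-86857377, minus strand): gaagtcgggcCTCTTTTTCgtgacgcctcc
Rps27 (chr3:90213629-90213658, minus strand): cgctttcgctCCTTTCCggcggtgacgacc
Rps27l (chr9:66946076-66946105, plus strand): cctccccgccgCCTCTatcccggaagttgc
The next 3 are Rps2, the gene with a fold change below 0, and a pair with starts of different kinds, Rpl22l1 with a run and Rpl22 with none in this window.
Rps2 (chr17:24720053-24720082, plus strand): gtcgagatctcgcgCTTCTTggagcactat
Rpl22l1 (chr3:28805498-28805527, plus strand): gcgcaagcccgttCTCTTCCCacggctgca
Rpl22 (chr4:152325716-152325745, plus strand): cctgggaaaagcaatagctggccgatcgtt
The last 3 are the X-linked Rpl36a and Rps4x, both among the genes with the smallest p-values, and Rpl36al, the copy of Rpl36a on chromosome 12; none holds such a run at its annotated start.
Rpl36a (chrX:134585644-134585673, plus strand): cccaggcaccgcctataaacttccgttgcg
Rps4x (chrX:102189372-102189401, minus strand): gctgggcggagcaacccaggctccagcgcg
Rpl36al (chr12:69184048-69184077, minus strand): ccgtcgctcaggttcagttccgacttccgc
The RefSeq start can lie some bases from the start used in muscle, so a missing run says only that these letters are not there. The median log2 fold change was 0.35 for the 29 genes with a run and 0.38 for the 31 without.

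Other promoter motifs were searched on both strands from 250 bases before to 50 after the start. CCGGAA, the core bound by ETS factors such as GABPA, occurred in 34 of 60 genes (56.7%), against 26.0% of other protein-coding genes tested. Counted by start, it lay at 49.3% of the members' starts and 14.9% of all RefSeq starts. GCCATNTT, the core bound by YY1, occurred in 12 of 60 (20.0%), against 8.48% of those other genes. By start it lay at 22.5% of the members' starts and 6.05% of all starts. TATAAA was found in 7 of 60 (11.7%, against 10.3% of those genes) and the E-box CACGTG in 6 of 60, against 10.5% of those genes. These matches describe letters and not binding, and ETS and YY1 cores can overlap other motifs.

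Transcripts of both subunits were higher in Ogg1Tg than in Control muscle by a small and even amount. The median log2 fold change over the 82 genes was 0.36, a fold of 1.29, and the middle of the distribution ran from 0.30 to 0.43. It was above 0 for 81 of the 82, against 47.2% of the 23312 genes tested, whose median was -0.02. The groups did not overlap, with all Ogg1Tg values higher, for 65 of the 82, against 7.03% of all genes and 7.72% of genes with a mean of at least 100. For 0 of the 82 were all Ogg1Tg values lower, against 11.3% of all genes. By limma with Benjamini-Hochberg adjustment over all genes, 1 member, Rpl36a, passed an adjusted p of 0.05 as higher, against 0.395% of all genes, and 0 as lower. At an unadjusted limma p of 0.05, 62 were higher, against 4.24% of all genes, and 0 lower. The members were selected with results of these data in view and their values move together within a library, so these counts describe the list and are not independent votes.

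Other tests gave the same direction with more or fewer calls. On recovered reads, edgeR called 3 members higher (Rpl36a, Rps4x and Rpl12), against 0.425% of all genes, and DESeq2 called 38, against 1.56%. Without Ogg1Tg replicate 3, whose immune and adipocyte markers were high, limma called 13 members higher, against 0.986% of all genes. Among them were Rps4x, Rpl36a, Rpl12, Rpl22, Rps12, Rpsa, Rps6, Rpl23, Rpl35, Rpl6, Rpl5 and Rps7. All of these calls ended when the filter on low values was taken on all 6 libraries, a change in which genes were tested and not in the members' values. Without that library edgeR called 16, against 1.14%, and DESeq2 57, against 2.27%. Each of these fits called 0 members lower.

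**Figure D1:**
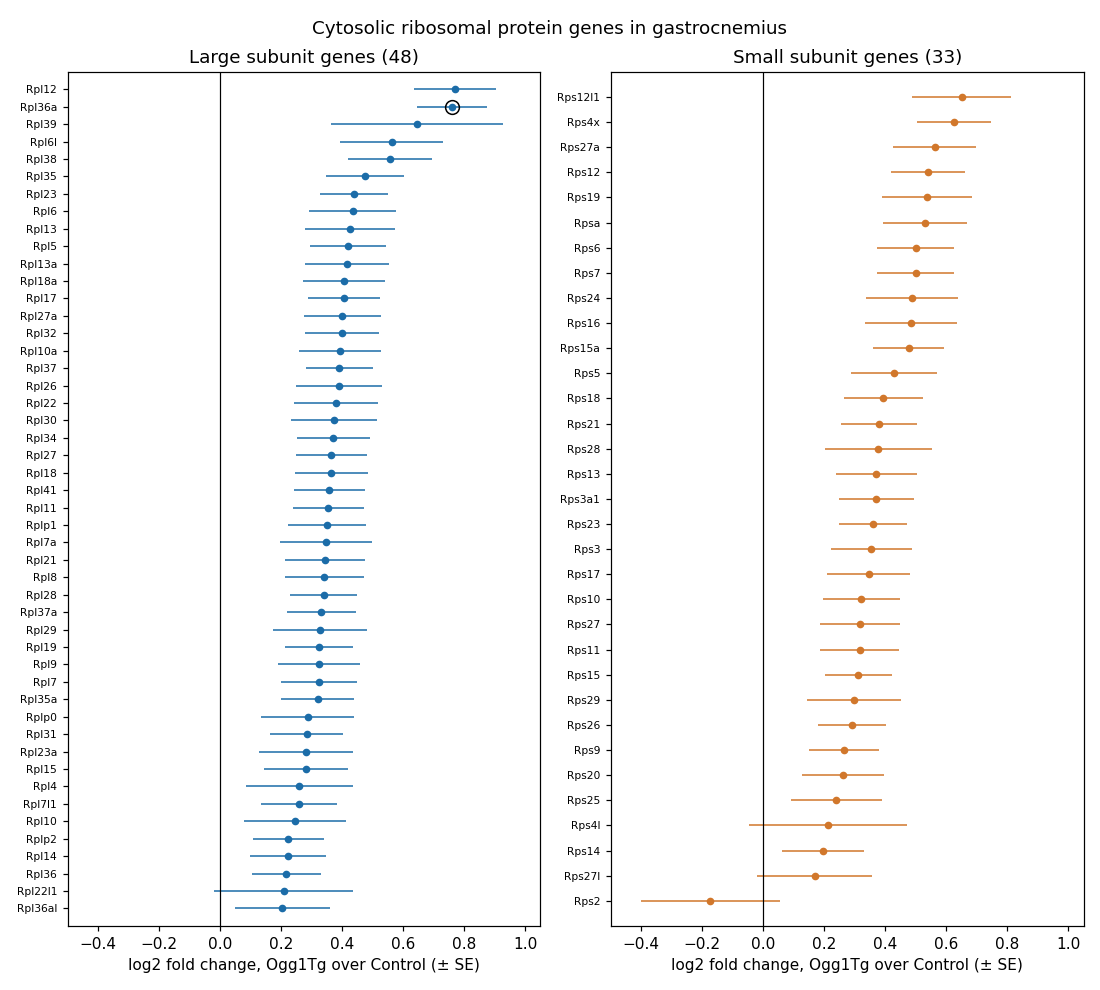
Log2 fold change of Ogg1Tg over Control ± SE for the large subunit genes (left) and the small subunit genes but 1 (right), from limma on all 6 libraries, sorted by value; a ring marks an adjusted p under 0.05. The points lie above 0 with the exception of Rps2 at -0.17, and Rpl36a alone is ringed.

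The large and small subunits differed little. The median log2 fold change was 0.36 for the large subunit, where 48 of 48 genes were above 0, and 0.37 for the small, where 33 of 34 were. Groups were apart, with Ogg1Tg higher, for 39 of 48 large and 26 of 34 small subunit genes, against 7.03% of all genes tested. The large minus small difference of medians was -0.01, and it lay on either side of 0 in the libraries. It was 0.04, 0.01 and -0.10 in Ogg1Tg replicates 1, 2 and 3, and 0.01, -0.00 and 0.01 in Control replicates 1, 2 and 3. Ogg1Tg replicate 3 was thus the library with the widest gap between subunits, with the small subunit ahead; without it the difference of log2 fold change medians was 0.02.

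By library, the median log2 difference of the 82 genes from the Control mean was 0.42, 0.37 and 0.31 in Ogg1Tg replicates 1, 2 and 3. It was 0.11, -0.00 and -0.14 in Control replicates 1, 2 and 3, so the Control mice also differed among themselves as a block. The 3 Ogg1Tg medians lay above the 3 Control medians. Of the 82 genes, 79, 77 and 70 exceeded their highest Control value in Ogg1Tg replicates 1, 2 and 3. The highest library for a gene was Ogg1Tg replicate 1 for 43, replicate 2 for 19 and replicate 3 for 20, and was a Control library for 0. The lowest was Control replicate 3 for 62 genes, Control replicate 2 for 15, Control replicate 1 for 3 and Ogg1Tg replicate 3 for 2. These counts by single library were not taken over all genes tested, so they describe the 82 genes only.

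**Figure D2:**
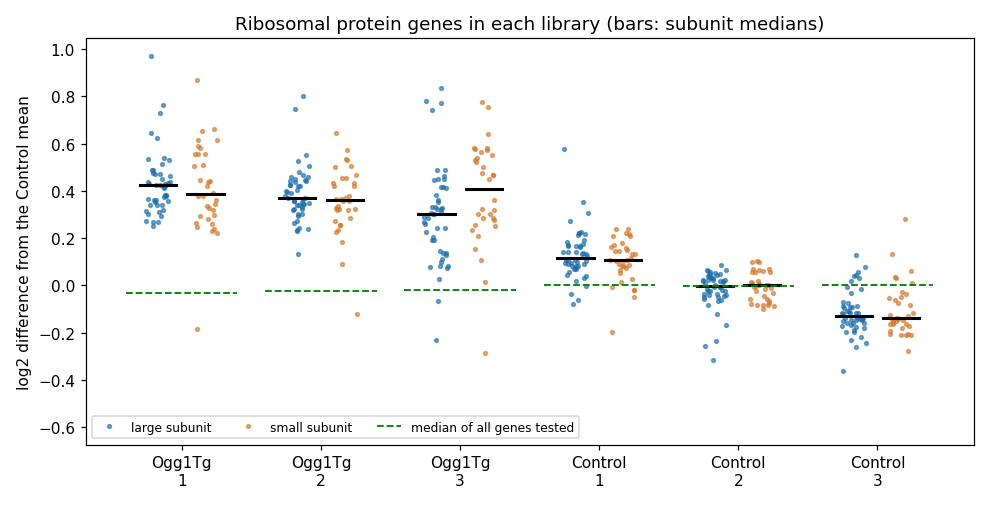
Log2 difference of each ribosomal protein gene from its Control mean (vertical axis) in each library, Ogg1Tg left of Control; points are genes coloured by subunit, black bars are subunit medians, and dashed lines the median of all genes tested. The Ogg1Tg subunit medians lie from 0.30 to 0.42 and the Control ones from -0.14 to 0.12, with all-gene medians close to 0 in every library.

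One library stood apart. Rank correlations over genes between Ogg1Tg replicate 3 and the others were 0.946 to 0.953, against 0.975 to 0.983 among the others. The summed level of 14 markers of T cells, B cells and neutrophils was 281, 247 and 15836 scaled reads in Ogg1Tg replicates 1, 2 and 3, and 240, 249 and 347 in Control replicates 1, 2 and 3; all 14 had a log2 fold change above 0, and Cd3g was at 0 in every Control library. Of 8 adipocyte markers, with 8 of 8 above 0, the sums were 3771, 3422 and 12922 in Ogg1Tg and 4220, 4602 and 3970 in Control. Of 10 macrophage markers, with 3 above 0, they were 3723, 3051 and 9405 in Ogg1Tg and 4264, 4989 and 6060 in Control. The fibre genes that define the labelled tissue were abundant in every library: 12 of them summed to 16216879, 20054959 and 11312389 in Ogg1Tg and 20040164, 17873493 and 16260305 in Control, with 1 of 12 above 0. Erythroid markers were lower in every Ogg1Tg library, with sums of 618, 714 and 572 in Ogg1Tg and 863, 961 and 781 in Control, and 0 of 6 tested above 0. Endothelial markers, with 1 of 8 above 0, summed to 25633, 24708 and 22403 in Ogg1Tg and 24015, 30299 and 28493 in Control. Satellite cell and regeneration markers, with 4 of 8 above 0, summed to 103960, 127545 and 77742 in Ogg1Tg and 164973, 131814 and 107927 in Control, lowest in Ogg1Tg replicate 3. Fibroblast markers had 4 of 8 and Schwann cell markers 3 of 8 above 0, and their sums overlapped between groups. No single marker passed limma. The part of these cells in the ribosomal protein values was not tested. Without Ogg1Tg replicate 3, all 82 ribosomal protein genes were above 0, at a median of 0.39 on the log2 scale. For 74 of the 82, both remaining Ogg1Tg values exceeded every Control value, against 13.1% of all genes tested without that library. In those 2 Ogg1Tg libraries the sums of T cell, B cell and neutrophil markers lay within the Control range, but the median log2 difference of the 14 markers from the Control mean was 0.93 and 0.61, against -0.33, 0.21 and 0.33 in Control. The adipocyte and macrophage sums lay below the Control range.

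Among large subunit genes, Rpl36a was the gene that passed. It encodes a protein of the ribosome's exit site and lies on the X chromosome (GRCm38, chrX:134585654-134588062, plus strand). Its values were 1445, 1430 and 1454 in Ogg1Tg replicates 1 to 3, against 911, 813 and 834 in Control replicates 1 to 3. The Ogg1Tg values lay within a narrow band, well above the highest Control value. The means were 1443 ± 11.9 in Ogg1Tg and 853 ± 51.8 in Control (SD, n = 3 each), with a log2 fold change of 0.76 ± 0.12 (SE) and a limma adjusted p = 0.029. That call was lost when any 1 library other than Ogg1Tg replicate 3 was left out, with limma adjusted p from 0.062 to 0.25 at log2 fold changes of 0.73 to 0.81; without Ogg1Tg replicate 3 it was 0.0065, or 0.073 with the filter taken on all 6 libraries. The 3 processed copies named after Rpl36a held 40.2% of the reads of the gene and its copies together, and with them added the log2 fold change was 0.59.

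Rpl12, which forms the base of the stalk where translation factors bind, had the highest fold change. It measured 8729, 9172 and 9036 in Ogg1Tg, against 6134, 4966 and 4791 in Control. The groups were well apart, with a log2 fold change of 0.77 ± 0.14 (SE), limma adjusted p = 0.053. It passed with edgeR on recovered reads, at an adjusted p = 0.043. Rpl39, a small protein at the exit tunnel, measured 3798, 2129 and 3458 in Ogg1Tg, against 2896, 1558 and 1618 in Control. Its groups overlapped, since Control replicate 1 was above Ogg1Tg replicate 2, and the log2 fold change of 0.65 ± 0.28 (SE) had a limma adjusted p = 0.44. Rpl6l, an intronless copy related to Rpl6, measured 1157, 1083 and 1038 in Ogg1Tg, against 943, 628 and 681 in Control, with all Ogg1Tg values above the Control ones.

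Per kilobase of principal transcript, Rpl4, Rpl10 and Rpl13 were the large subunit genes with the highest levels. Rpl4, part of the exit tunnel wall, measured 24822, 27871 and 20683 scaled reads in Ogg1Tg, against 22748, 20162 and 18176 in Control, and the groups overlapped. Rpl10, one of the last proteins to join the large subunit, measured 14721, 12741 and 11433 in Ogg1Tg, against 12696, 11045 and 9174 in Control, and the groups overlapped. Rpl13 measured 12529, 11751 and 10663 in Ogg1Tg, against 10026, 8516 and 7587 in Control, and they did not overlap. The log2 fold changes of Rpl4, Rpl10 and Rpl13 were 0.26, 0.25 and 0.43, with limma adjusted p-values of 0.62, 0.63 and 0.34.

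The stalk that recruits elongation factors is built from Rplp0 with dimers of Rplp1 and Rplp2. Rplp0 measured 19136, 17767 and 15377 in Ogg1Tg, against 15618, 14297 and 12913 in Control, and Ogg1Tg replicate 3 lay among the Control values. Rplp1 measured 6999, 6781 and 6056 in Ogg1Tg, against 5530, 5328 and 4709 in Control. Rplp2 measured 2737, 2625 and 2426 in Ogg1Tg, against 2362, 2249 and 2060 in Control. For Rplp1 and Rplp2 the groups were apart, and the log2 fold changes of Rplp0, Rplp1 and Rplp2 were 0.29, 0.35 and 0.22, with limma adjusted p-values of 0.53, 0.35 and 0.53. Rpl5 and Rpl11, which with 5S ribosomal RNA can bind the p53 inhibitor Mdm2 (a choice made after seeing the values), had log2 fold changes of 0.42 and 0.35, and neither passed (limma adjusted p = 0.26 and 0.31).

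In the small subunit, Rps4x had the smallest p-value. This X-linked gene, which encodes a protein of the subunit body, measured 11146, 11083 and 10541 in Ogg1Tg, against 7509, 7079 and 6688 in Control. The groups lay far apart relative to their spread, with means of 10923 ± 333 in Ogg1Tg and 7092 ± 411 in Control (SD, n = 3 each). It changed by 0.62 ± 0.12 (SE) on the log2 scale, with a limma adjusted p = 0.083, and passed with edgeR on recovered reads at an adjusted p = 0.041. Rps12 was the next by p-value, at 4750, 4669 and 4669 in Ogg1Tg, against 3477, 3356 and 2886 in Control, a log2 fold change of 0.54 ± 0.12 (SE) with a limma adjusted p = 0.13. Its annotated relative Rps12l1 lies wholly within exons of another gene, so its reads cannot be assigned to it alone; it measured 2138, 1654 and 1748 in Ogg1Tg, against 1351, 1227 and 965 in Control.

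Rps6 is the substrate of the S6 kinases downstream of mTORC1. It measured 9305, 8489 and 9112 in Ogg1Tg, against 6677, 6648 and 5738 in Control, with every Ogg1Tg value above the Control ones and a log2 fold change of 0.50 ± 0.13 (SE; limma adjusted p = 0.18). Rpsa, also known as the laminin receptor precursor, measured 14058, 13341 and 13299 in Ogg1Tg, against 10478, 9523 and 8297 in Control. Rps27a, which is made as a fusion with ubiquitin, measured 1832, 1734 and 1738 in Ogg1Tg, against 1384, 1199 and 1034 in Control. Rps3a1 measured 10266, 10551 and 9542 in Ogg1Tg, against 8307, 7689 and 7492 in Control. The groups were apart for Rpsa, Rps27a and Rps3a1, with log2 fold changes of 0.53, 0.56 and 0.37 and limma adjusted p-values of 0.19, 0.17 and 0.31.

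Rps2, at the entry of the mRNA channel, had the highest level per kilobase and was the exception to the common direction. It measured 25587, 34717 and 19242 in Ogg1Tg, against 31884, 29121 and 26431 in Control. The highest and the lowest of the 6 values were both in Ogg1Tg mice, and the log2 fold change was -0.17 ± 0.23 (SE; limma adjusted p = 0.80). Without Ogg1Tg replicate 3 it was 0.04, so the sign rests on that library. The 5 processed copies named after Rps2 held 35.8% of the reads of the gene and its copies, with a log2 fold change of 0.76 for their sum. The most abundant copy, Rps2-ps10, measured 15972, 7756 and 11662 in Ogg1Tg, against 7207, 6290 and 5674 in Control; in Ogg1Tg it was high in the libraries where Rps2 was low. Rps2 and its copies together had a log2 fold change of 0.19, and reads of near-identical copies may be split between them by the counting.

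**Figure D3:**
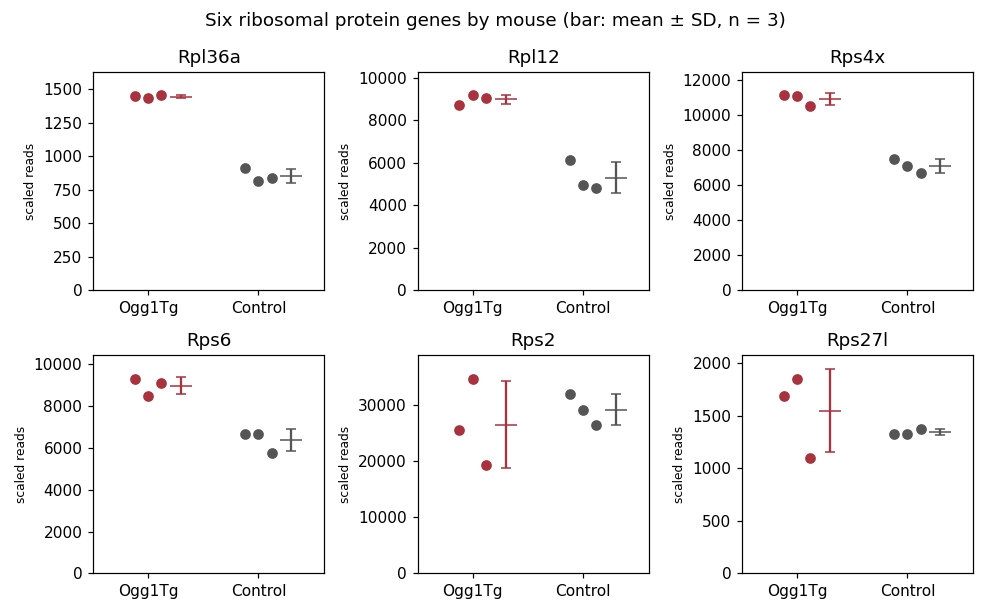
Scaled reads (vertical axis, starting at 0) of 6 ribosomal protein genes in each mouse, Ogg1Tg left of Control; dots are mice and the bar to their right is the mean ± SD (n = 3). Rpl36a, Rpl12, Rps4x and Rps6 are apart between groups, while Rps2 and Rps27l overlap, with Ogg1Tg replicate 3, the rightmost Ogg1Tg dot, the lowest at 19242 and 1099.

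Several ribosomal proteins have paralogues that can take the same place or act outside the ribosome. Ratios of paired genes within a library depend on its scaling factor only through the 1 added to each value. In the fixed list, 6 pairs had both genes among the members. Ratios are of scaled reads plus 1, not per length. Each was compared with a two-sided exact permutation test over 20 relabelings, whose smallest p is 0.1, adjusted over the 6 pairs, so none could pass 0.05. Rpl36al over Rpl36a was 1.40, 1.39 and 1.04 in Ogg1Tg, against 1.88, 2.07 and 1.66 in Control. All Ogg1Tg ratios were lower, with a log2 difference of -0.56 (exact permutation p = 0.1, adjusted 0.2). Reads in the processed copies of Rpl36a are not in this ratio. With them added, the log2 fold change of Rpl36a was 0.59 in place of 0.76, so the difference in ratio would be smaller. Rpl36al itself, at 2029, 1990 and 1516 in Ogg1Tg, against 1713, 1687 and 1387 in Control, overlapped between groups, with a log2 fold change of 0.20 (limma adjusted p = 0.67). Rpl36al also shares part of its exons with another gene.

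The ratio of Rplp2 to Rplp1 was steady within groups, at 0.391, 0.387 and 0.401 in Ogg1Tg, against 0.427, 0.422 and 0.438 in Control. All Ogg1Tg ratios were lower, by 0.13 on the log2 scale (exact permutation p = 0.1, adjusted 0.2). Rps4l, an intronless relative, was rare beside Rps4x, with ratios of 0.0122, 0.00797 and 0.0109 in Ogg1Tg, against 0.0138, 0.0146 and 0.0124 in Control, a log2 difference of -0.41 (exact permutation p = 0.1, adjusted 0.2), or -0.23 without Ogg1Tg replicate 2. Its values were 136, 87.3 and 114 in Ogg1Tg, against 103, 102 and 82.2 in Control, and those overlapped. For 3 pairs, then, the ratios did not overlap, and in all 3 the gene with the larger fold change was the canonical one or Rplp1. Among members, 2 further pairs with intronless relatives were outside the list and were not tested. Rpl6l over Rpl6 was 0.142, 0.136 and 0.155 in Ogg1Tg, against 0.148, 0.113 and 0.137 in Control, a log2 difference of 0.13. Rps12l1 over Rps12 was 0.450, 0.354 and 0.374 in Ogg1Tg, against 0.389, 0.366 and 0.335 in Control, a log2 difference of 0.11. Both overlapped between groups, and their differences were above 0 where those of the 6 listed pairs were below it.

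Rps27l, a p53 target that binds Mdm2, measured 1684, 1853 and 1099 in Ogg1Tg, against 1326, 1329 and 1373 in Control. It exceeded the Control values in Ogg1Tg replicates 1 and 2 and was below them in replicate 3. Its canonical relative Rps27 measured 733, 726 and 854 in Ogg1Tg, against 609, 599 and 643 in Control. The ratio of Rps27l to Rps27 was 2.30, 2.55 and 1.29 in Ogg1Tg, against 2.18, 2.22 and 2.13 in Control, a log2 difference of -0.15 (exact permutation p = 1, adjusted 1), and 0.15 without Ogg1Tg replicate 3.

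Rpl22l1, the paralogue of the RNA-binding protein Rpl22, measured 1272, 1369 and 836 in Ogg1Tg, against 1215, 1020 and 762 in Control, while Rpl22 measured 4444, 4620 and 3526 in Ogg1Tg, against 3414, 3191 and 3018 in Control. Their ratio differed by -0.17 on the log2 scale (exact permutation p = 0.4, adjusted 0.6), and from -0.06 without Control replicate 1 to -0.31 without Control replicate 3; without Ogg1Tg replicate 3 it was -0.07. Rpl7l1, which acts in assembly of the large subunit, measured 1929, 1998.9 and 1635 in Ogg1Tg, against 1464, 1565 and 1608 in Control, and Rpl7 measured 6075, 5917 and 5509 in Ogg1Tg, against 5081, 4729 and 4207 in Control. Their ratio differed by -0.07 (exact permutation p = 0.7, adjusted 0.84), by 0.04 without Control replicate 3 and by -0.17 without Control replicate 1. Rpl36al, Rpl22l1 and Rps27l were, with Rps2, the 4 members whose value in Ogg1Tg replicate 3 was below the Control mean. Their log2 differences there were -0.07 for Rpl36al, -0.23 for Rpl22l1, -0.29 for Rps27l and -0.59 for Rps2.

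**Figure D4:**
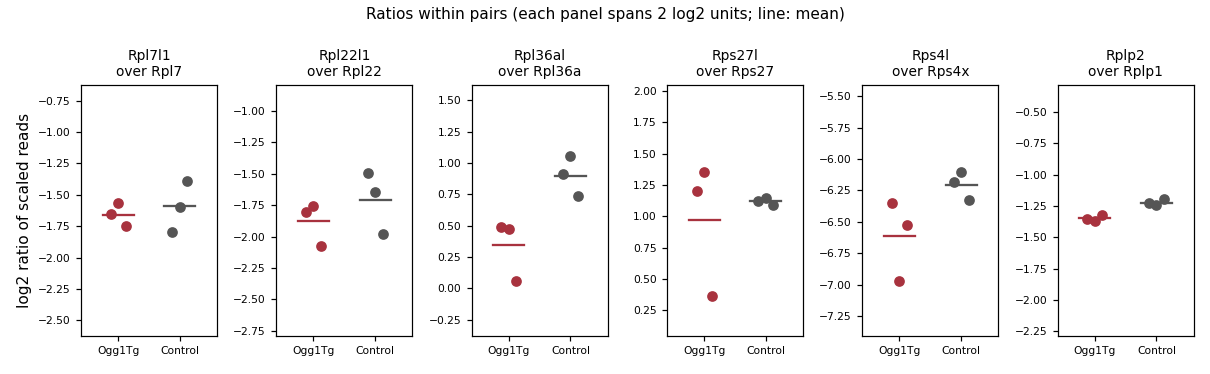
Log2 ratio of scaled reads within 6 pairs of ribosomal protein genes in each mouse, Ogg1Tg left of Control in each panel; dots are mice, lines are means, and every panel spans the same height. Rpl36al over Rpl36a, Rps4l over Rps4x and Rplp2 over Rplp1 are lower in all Ogg1Tg mice; the other 3 pairs overlap.

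As a share of all reads in named genes, the 82 members held 0.754%, 0.685% and 0.940% in Ogg1Tg replicates 1, 2 and 3, against 0.542%, 0.527% and 0.496% in Control replicates 1, 2 and 3. All Ogg1Tg shares were higher, with means of 0.793% ± 0.132 in Ogg1Tg and 0.522% ± 0.024 in Control (SD, n = 3 each). The 95% Wilson intervals of these shares were at most 0.0056 percentage points wide and cover counting error only. A share also moves with everything else in the library: its largest value was in Ogg1Tg replicate 3, where the fibre genes summed lowest, and the part of that was not tested. Without that library the difference in share was 0.198 percentage points, against 0.271 with it. The large subunit held 0.485% ± 0.080 in Ogg1Tg and 0.316% ± 0.015 in Control, and the small 0.308% ± 0.053 in Ogg1Tg and 0.205% ± 0.008 in Control.

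Members ranged widely in level and narrowly in fold change. Per kilobase of principal transcript, the mean over all libraries ran from 110 scaled reads for Rps4l to 25439 for Rps2, with a median of 4555 and a middle range of 2879 to 6604. After Rps2 came Rpl4 at 14571, Rpl10 at 13998 and Rpl13 at 13050. After Rps4l the lowest were Rps15a at 326, whose longest principal transcript is 5179 bases, and Rpl7l1 at 652. The longest principal transcript was the one used, so the low place of Rps15a depends on that length. Across the 82 genes, log2 fold change was unrelated to mean level (Spearman rho 0.09) and to transcript length (rho 0.00); both are descriptions over genes that share libraries. Ribosomal protein transcripts were short, with a median of 882 bases against 2848 for the 16724 protein-coding genes tested. Other protein-coding genes of like length and a mean of at least 100 had median log2 fold changes of -0.00 under 500 bases (60 genes) and -0.06 from 500 to under 1000 bases (517 genes), where the members had 0.35 (11 genes) and 0.37 (42 genes).

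The members lie on 19 chromosomes, 15 of them on chromosome 7 and 4 on X. The 4 on X, Rpl36a, Rps4x, Rpl39 and Rpl10, had a median log2 fold change of 0.63, against 0.36 for the other 78 and 0.01 for all 1019 genes tested on X; with 4 genes, of which Rpl10 had 0.25, this is given as values only. Within the bounds of 29 members lie 57 snoRNA genes, and their median was 0.40, against 0.35 for the 53 without. Exons of another gene overlap those of 38 members, whose median was 0.37, against 0.36 for the other 44. Pseudogene entries named after a ribosomal protein numbered 226, of which 177 were tested; 158 were above 0, none passed limma and the median was 0.37. They held 0.216%, 0.159% and 0.252% of named-gene reads in Ogg1Tg, against 0.139%, 0.132% and 0.118% in Control. The 56 members with such entries may have had reads assigned to the copies, and with the copies added all 82 members were above 0, with a median of 0.35.

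Of 3 further genes for proteins of the ribosome that the symbol rule does not reach, 2 were above 0 with all Ogg1Tg values higher. For all genes tested that share was 7.03%. Below 0, with all Ogg1Tg values lower, was 1 gene, against 11.3% of all genes tested. None of the 3 passed limma, and their median log2 fold change was 0.19. Rack1, a signalling scaffold on the small subunit, measured 9140, 9207 and 8148 in Ogg1Tg, against 7034, 6450 and 5834 in Control, apart between groups with a log2 fold change of 0.46 (limma adjusted p = 0.24). Fau, a fusion of a ubiquitin-like protein with a small subunit protein, measured 1606, 1602 and 2129 in Ogg1Tg, against 1580, 1494 and 1564 in Control, a log2 fold change of 0.19 (limma adjusted p = 0.66).

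Genes that share the TOP motif or serve ribosome assembly lay between the members and all genes. Of 17 non-ribosomal genes with known TOP mRNAs, 14 were above 0 and none passed, with a median of 0.13, and 0.27 without Ogg1Tg replicate 3. Elongation factor Eef2 measured 82740, 80921 and 61299 in Ogg1Tg, against 63611, 57884 and 60219 in Control, and Tpt1 measured 59093, 60417 and 48666 in Ogg1Tg, against 54562, 53889 and 50578 in Control; both overlapped. Of 40 ribosome biogenesis genes, 38 were above 0 and none passed, with a median of 0.16, and 0.20 without that library. Among them the nucleolar protein Ncl had a log2 fold change of 0.10 and Mybbp1a of 0.19 (limma adjusted p = 0.81 and 0.64).

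Of 15 regulators of ribosomal protein mRNA, 3 were above 0, against 47.2% of all genes tested, and 2 passed as higher, against 0.395%. The median was -0.16, and -0.00 without Ogg1Tg replicate 3, so its distance from 0 rests on that library. Myc, a transcription factor known to drive ribosome synthesis, rose to 833, 831 and 825 in Ogg1Tg, against 265, 263 and 214 in Control, a log2 fold change of 1.75 ± 0.15 (SE; limma adjusted p = 0.0010). Eif4ebp1, a translational repressor that mTORC1 inactivates, rose to 4231, 3504 and 2657 in Ogg1Tg, against 1299, 946 and 1078 in Control, with a log2 fold change of 1.63 ± 0.19 (SE; limma adjusted p = 0.0075). Of 4 genes of the p53 axis, 3 were above 0 and 1 passed as higher, against the same shares of all genes tested. That gene was Cdkn1a, a cell cycle inhibitor, at 3004, 1904 and 1467 in Ogg1Tg, against 646, 653 and 538 in Control. Its log2 fold change was 1.73 ± 0.24 (SE), with a limma adjusted p = 0.016. Both lists were chosen with earlier results of these data known. Leaving out 1 library kept the call of Myc each time (limma adjusted p at most 0.017). The adjusted p of Eif4ebp1 reached 0.085 without Control replicate 2 and was also above 0.05 without Control replicate 3, and that of Cdkn1a reached 0.135 without Control replicate 2 and was above 0.05 without Control replicate 1 or 3.

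Mitochondrial ribosomal proteins, which build the separate ribosome of mitochondria, and nuclear genes of oxidative phosphorylation did not follow the cytosolic set. Of 80 mitochondrial ribosomal protein genes tested, 24 were above 0 and none passed, with a median of -0.10, and 0.05 without Ogg1Tg replicate 3. By library their median log2 difference from the Control mean was 0.11, -0.01 and -0.38 in Ogg1Tg and 0.02, 0.02 and -0.04 in Control. Of 69 nuclear oxidative phosphorylation genes, 1 was above 0 and none passed, with a median of -0.33, and -0.10 without that library. Their library medians were 0.01, -0.23 and -0.75 in Ogg1Tg and -0.03, 0.06 and -0.05 in Control. For both lists the lowest library was Ogg1Tg replicate 3, where fibre genes were also lowest, while the cytosolic members were above the Control mean in 78 of 82 cases there.

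**Figure D5:**
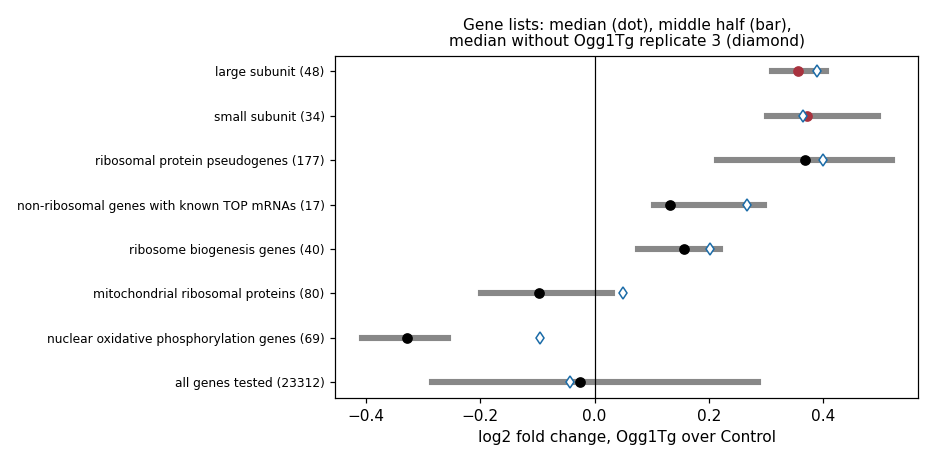
Median log2 fold change of Ogg1Tg over Control (dots), middle range (bars, 25th to 75th percentile) and the median without Ogg1Tg replicate 3 (diamonds) for gene lists, with the number of genes tested in brackets. The subunits (0.36 and 0.37) and pseudogene entries (0.37) lie highest, TOP and biogenesis genes between, and oxidative phosphorylation genes lowest at -0.33.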

How the data were processed

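Libraries were made from column-purified total RNA with a NuGen Ovation Universal kit (labels' protocols). Reads were handled with Trimmomatic, SAMtools and HTSeq on mm10, per the submitters' processing notes. Which aligner and which strand setting were used is not given in the sources. The deposited values, called FPKM in the file names, are a signal: gene counts divided by 1 factor per library, since 100% of values came within 0.01 of a whole number of reads (for Ogg1Tg replicate 3 the step of 1.006 makes this less distinctive). The design had assumed values that are not raw counts, and its test was kept.

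The test ran on log2(value + 1), a scale that compresses folds of low genes, over the 23312 named genes with a mean of at least 1, by limma 3.58.1 under R 4.3.3 (variance trend, two-sided, Benjamini-Hochberg, adjusted p under 0.05), Ogg1Tg over Control. Unnamed entries, left out of all tests, took up 2.38% to 3.53% of reads. No 2 libraries agreed within sampling noise (smallest chi-square per gene 12.9). On simulated data limma called 82% of genes changed 2-fold and 100% changed 4-fold, with 3 false calls over 22794 genes. The simulation gave every library the same mean profile and dispersion, with no outlying library such as Ogg1Tg replicate 3. Its shares are therefore not the power or error rate of the test in these mice. Gene models are GENCODE M21 on GRCm38; starts are from RefSeq.

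The members and lists were chosen with earlier results of these data known. Named members are, per subunit, the 4 with the highest mean, the 4 with the highest and 2 with the lowest fold change and the 2 with the smallest p, plus the stalk proteins, Rpsa, Rps6, paired genes and those below 0; from each pathway list, up to 4 called genes, else the 2 highest. Rpl5 and Rpl11 fall outside it. One member that the rule selects, and 1 gene of a pathway list, are not reported here by name; they are included in the counts and medians of their lists. Alternatives were median-of-ratios and quantile scaling, a filter at a mean of 5 or none, a pseudocount of 0.1, no trend, a robust trend, a replicate block, each library left out, and edgeR 4.0.16 and DESeq2 1.42.0 on recovered reads; edgeR, DESeq2 and a filter on all 6 libraries without Ogg1Tg replicate 3, and other handlings of pseudogenes, were added after seeing the data.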

Additional observations from a re-analysis of the deposited data

How the results depend on the processing

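The number of members called depended on the test. Beside 1 member called by limma, 3 were called with median-of-ratios scaling (3 of 150 genes) and 3 with edgeR. Quantile normalization gave 10 (10 of 177 genes), DESeq2 38 and limma without a variance trend 0. Leaving out 1 library gave 0 to 13 members, 13 being without Ogg1Tg replicate 3; there, 0 passed with the filter on all 6 libraries, 16 with edgeR and 57 with DESeq2. Over all genes, against 127 called by limma, 124 were called with edgeR, 619 with DESeq2, 46 without a trend and 35 to 425 with 1 library left out; without Ogg1Tg replicate 3 the counts were 28 with the filter on all 6 libraries, 402 with edgeR and 874 with DESeq2. Where 0 members passed, the cause was not tested; unadjusted counts over all genes at p under 0.05 were 2081 without a trend and 1614 to 3165 with 1 library left out.

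The median log2 fold change of the members was 0.51 with quantile normalization and 0.32 to 0.44 under the other settings. The share difference was 0.198 to 0.326 percentage points. Rps2 changed sign, to 0.16 with quantile normalization, and without Ogg1Tg replicate 3 to 0.036 with limma under either filter, 0.092 with edgeR and 0.084 with DESeq2; with 1 library left out it ran from -0.389 to 0.036. The ratio of Rpl7l1 to Rpl7 ran from -0.167 to 0.037 and that of Rps27l to Rps27 from -0.340 to 0.154 with 1 library left out. Of 513 other settings of named members, 444 kept direction and side of the threshold.

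Deviations from the group mean were nearly uncorrelated between same-numbered libraries (-0.05, -0.01 and 0.03). Such values cannot show whether the mice were paired by litter or day. With the replicate block in limma, 0 members and 102 genes passed, with 2521 at an unadjusted p under 0.05, and the median stayed 0.36. On simulated data, which held no outlying library, limma called 82% of 2-fold changes. Smaller folds, such as the members' median, were not simulated.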
